A study of Oryza sativa with 12 samples.

Results

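*LAC4*, *LAC20* and *CAD8A* are 2 laccase genes and a cinnamyl alcohol dehydrogenase gene of rice, whose families include enzymes of lignin formation. They were followed over 12 expression arrays of rice seedlings. They were found by name among 15140 genes that had a probe set of their own, 3 of 3 were measured, and each was read by 1 probe set. The gene table lists them as synonyms of LOC4327500 on chromosome 1, LOC4351006 on chromosome 11 and LOC4346988 on chromosome 9. The genes were selected on their measured values across the 4 groups. For this reason all their levels and differences are given as descriptions with a standard deviation (SD) or standard error (SE), and no test is attached to them.

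Lignin is a phenolic polymer that stiffens and waterproofs the walls of water-conducting and supporting plant cells. Its building blocks, the monolignols, are made from phenylalanine by the phenylpropanoid pathway, and cinnamyl alcohol dehydrogenases (CAD) carry out the final reduction of an aldehyde to an alcohol. Laccases are copper enzymes that use oxygen to oxidise monolignols in the cell wall, where class III peroxidases do the same with hydrogen peroxide. Both laccases and CADs are encoded by families of related genes, and membership of a family does not by itself show that a gene acts in lignin formation.

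The arrays covered H49_DS, H49_CT, WT_DS and WT_CT, with 3 arrays in each. H49 is a line of the rice cultivar Pusa Basmati 1 that carries the *OsHOX24* coding region, a homeodomain-leucine zipper gene, behind a ubiquitin promoter, and WT is the untransformed cultivar. The sample labels give the gene and not the line, so results for H49 describe 1 transgenic line as named in the paper. Seedlings of both genotypes were 3 weeks old, had grown in nutrient solution and were sampled as seedlings, with no organ named, after 3 h of drying in tissue paper (desiccation stress, DS) or after 3 h in water (control, CT). Values are log2 expression values per probe set, so a difference of 1 is a fold of 2. In bulk seedling RNA, a smaller share of the cells that express a gene cannot be told apart from less transcript per cell.

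Arrays of 1 group correlated with each other at 0.949 to 0.969 across genes. *OsHOX24* itself lay at 9.44 to 10.17 in H49_DS and 3.23 to 4.56 in H49_CT, against 9.38 to 10.29 in WT_DS and 2.83 to 5.61 in WT_CT. Its value in the arrays labelled as *OsHOX24* overexpression differed from that in the wild-type arrays by -0.22 over both treatments (SE 0.39, adjusted p = 0.98 from limma). The arrays thus do not show the added transcript, and where its probes lie is not known from the sources used here. By real-time PCR, the paper reports higher *OsHOX24* expression in this line than in WT.

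*LAC4* was lower after DS than in water in both genotypes, by more than a fold of 2 in H49 and by less in WT. Its log2 values were 3.22, 3.08 and 3.89 in H49_DS, against 5.22, 4.70 and 4.18 in H49_CT. All H49_DS arrays thus lay below all H49_CT arrays. In WT_DS the values were 3.91, 4.19 and 3.28, against 4.16, 4.79 and 4.69 in WT_CT, and here WT_DS replicate 2 lay just above WT_CT replicate 1. The group means were 3.40 ± 0.43 in H49_DS and 4.70 ± 0.52 in H49_CT (SD, n = 3 arrays each), a difference of -1.30 (SE 0.31) or 2.47-fold lower. In WT they were 3.80 ± 0.47 in WT_DS and 4.55 ± 0.34 in WT_CT (SD, n = 3 each), a difference of -0.75 (SE 0.31) or 1.68-fold lower. Without WT_DS replicate 3, the lowest array of its group, the WT difference was -0.49.

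*LAC20* was lower after DS in both genotypes, and its control arrays varied most. The values were 4.12, 4.61 and 4.04 in H49_DS, against 5.32, 5.77 and 6.75 in H49_CT. In WT they were 4.43, 4.33 and 4.45 in WT_DS, against 4.52, 6.42 and 5.66 in WT_CT. The DS arrays did not overlap the control arrays in either genotype, but WT_CT replicate 1 lay only slightly above the WT_DS arrays and far from the other WT_CT arrays. The means were 4.26 ± 0.31 in H49_DS and 5.95 ± 0.73 in H49_CT (SD, n = 3 each), a difference of -1.69 (SE 0.42) or 3.22-fold lower. For WT the means were 4.40 ± 0.06 in WT_DS and 5.53 ± 0.96 in WT_CT (SD, n = 3 each), a difference of -1.13 (SE 0.42) or 2.19-fold lower. The WT difference was -1.64 without WT_CT replicate 1 and -0.69 without WT_CT replicate 2, so single control arrays set its size.

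*CAD8A* had nearly the same difference after DS in both genotypes. Its values were 4.09, 3.69 and 3.85 in H49_DS, against 5.93, 4.44 and 5.94 in H49_CT, and H49_CT replicate 2 was the low one of its group. In WT_DS they were 3.72, 4.53 and 3.70, against 6.08, 5.27 and 5.59 in WT_CT. The groups did not overlap within a genotype. Means were 3.88 ± 0.20 in H49_DS and 5.43 ± 0.87 in H49_CT (SD, n = 3 each), a difference of -1.55 (SE 0.37) or 2.94-fold lower. They were 3.98 ± 0.47 in WT_DS and 5.65 ± 0.41 in WT_CT (SD, n = 3 each), a difference of -1.66 (SE 0.37) or 3.16-fold lower. Without H49_CT replicate 2 the H49 difference was -2.05.

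**Figure D1:**
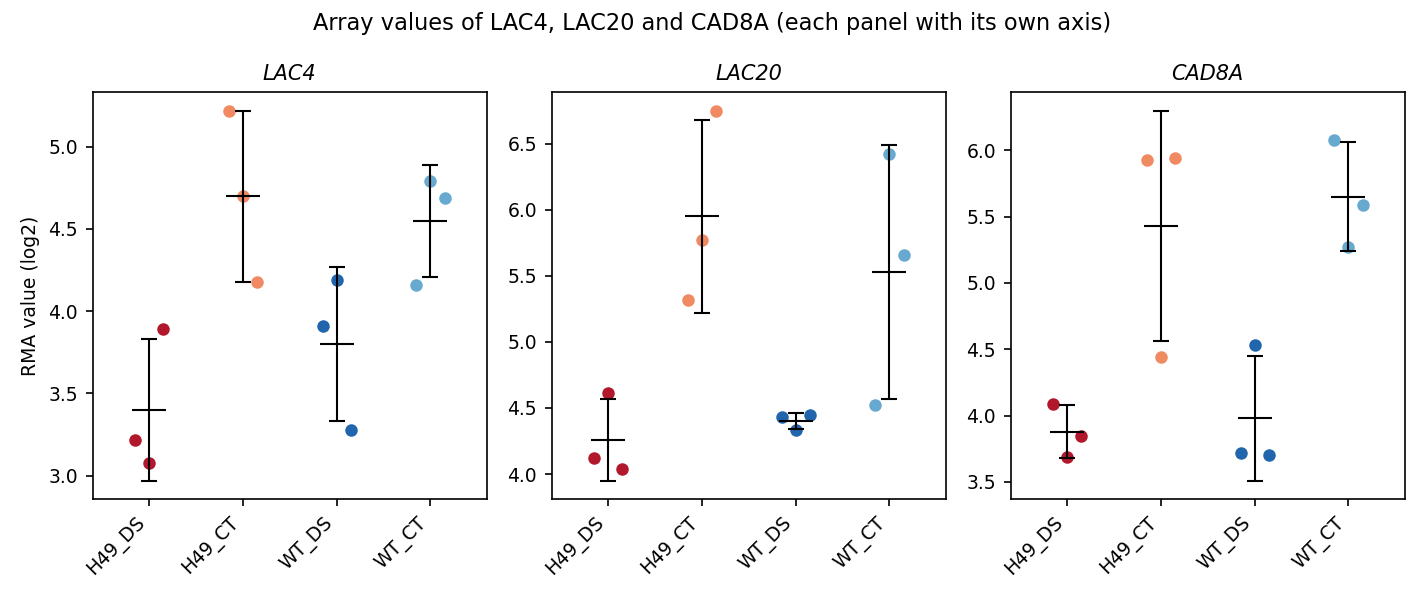
RMA expression values (log2, vertical axes) of *LAC4*, *LAC20* and *CAD8A* in the 4 groups. Points are single arrays, the horizontal bar is the group mean and the error bar its SD (n = 3); the DS groups lie lower than the CT groups of the same genotype, with an overlap for *LAC4* in WT and a single low control array for *LAC20* in WT (4.52).

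Of the 3 genes, 3 had every DS array below every control array in H49, and 2 of 3 did in WT. Among all 15140 genes this held for 27.1% in H49 and 24.9% in WT, while 17.7% in H49 and 15.0% in WT had every DS array above every control array. At least 2-fold lower means were found for 3 of 3 genes in H49 and 2 of 3 in WT, against 9.72% and 8.98% of all genes. *LAC20* and *CAD8A* reached this in both genotypes, as did 6.7% of all genes. Since the genes were chosen with these values known, nothing can be read from these counts about laccases or CADs as such. Across genotypes the separation was less complete: 4 of 6 control arrays lay above all 6 DS arrays for *LAC4*, and 5 of 6 for *LAC20* and for *CAD8A*.

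In the order of the group means, the DS groups came below the control groups for each gene, and the genotypes could not be ordered within a treatment. *LAC4* was lowest in H49_DS, followed by WT_DS, WT_CT and H49_CT, and the arrays of each neighbouring pair of groups overlapped. For *LAC20* the order was the same, H49_DS overlapped WT_DS, H49_CT overlapped WT_CT, and the neighbours WT_DS and WT_CT did not overlap. *CAD8A* was lowest in H49_DS, followed by WT_DS, H49_CT and WT_CT, and again the arrays of neighbouring groups overlapped, since H49_CT replicate 2 lay just below WT_DS replicate 2.

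The comparison of H49 with WT asks whether the transgenic line differs in these genes with or without stress. After DS, the H49 minus WT difference was -0.40 for *LAC4* (SE 0.31), -0.14 for *LAC20* (SE 0.42) and -0.10 for *CAD8A* (SE 0.37). Without stress it was 0.15 (SE 0.31), 0.41 (SE 0.42) and -0.21 (SE 0.37) for the same genes in turn. Each of these 3 control differences changed sign with some single array left out, with ranges from -0.11 to 0.41 for *LAC4*, -0.10 to 0.86 for *LAC20* and -0.46 to 0.29 for *CAD8A*. Over both treatments the differences were -0.13 for *LAC4* (SE 0.22), 0.14 for *LAC20* (SE 0.30) and -0.16 for *CAD8A* (SE 0.26). These differences over both treatments were smaller than their SEs. Among the differences within a treatment, that of *LAC4* after DS was larger than its SE and lay between -0.66 and -0.20 when single arrays were left out in turn. The DS response was compared between genotypes too, and H49 minus WT came to -0.55 for *LAC4* (SE 0.45), -0.56 for *LAC20* (SE 0.59) and 0.11 for *CAD8A* (SE 0.53). For *LAC4* this difference in response was 0.05 when replicate 1 of every group was left out, and for *LAC20* it lay between -1.0 and -0.05 when single arrays were left out in turn. Among all genes, 0% were called in each of these 4 comparisons between genotypes. A call here means an adjusted p of at most 0.05 from limma and a fold of at least 2.

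None of the other measured laccases, found by name, was called after DS, and they pointed in different directions. The gene table holds 12 genes with a laccase name (LAC and a number), of which 10 had a probe set of their own. Laccase genes without such a name were not sought. Of the 8 named ones besides *LAC4* and *LAC20*, 0 rose and 0 fell in either genotype. With limma's unadjusted p under 0.05 and no fold minimum there were 2 laccases in H49 and 2 in WT, against 38.2% of all genes in H49 and 38.1% in WT. The share of all genes that rose was 5.26% in H49 and 4.93% in WT, and the share that fell was 9.3% in H49 (14.6% called in all) and 8.47% in WT. The split of all calls depended on scaling, since 63.9% of them fell in H49 and 63.2% in WT as deposited, and 43.8% and 41.3% did with each array centred on its median. The median difference of the 8 laccases was 0.07 in H49 and 0.14 in WT, where that of all genes was -0.06 in both.

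*LAC7* came closest to a call in the upward direction. Its values were 10.74, 10.52 and 10.41 in H49_DS, against 10.21, 9.94 and 9.48 in H49_CT. In WT they were 9.99, 10.87 and 10.34 in WT_DS, against 9.67, 9.86 and 9.98 in WT_CT. Each DS array thus lay above each control array of its genotype, by a mean difference of 0.68 in H49 (SE 0.24, adjusted p = 0.053 from limma) and 0.56 in WT (SE 0.24, adjusted p = 0.11). *LAC10* lay on the other side, at 4.06, 4.32 and 4.44 in H49_DS, against 4.76, 4.76 and 4.74 in H49_CT. In WT_DS it was at 4.26, 4.27 and 4.16, against 5.15, 4.44 and 5.02 in WT_CT. Its difference was -0.48 in H49 (adjusted p = 0.091 from limma) and -0.64 in WT (SE 0.20, adjusted p = 0.029), which is 1.56-fold and so below the fold used for a call.

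The remaining laccases had smaller or more variable differences. *LAC24* ranged from 3.54 to 5.62 over the 12 arrays, with a difference after DS of 0.51 in H49 and 0.49 in WT (SE 0.39 each, adjusted p = 0.36 and 0.38 from limma). Among these 8 laccases it had the largest difference between genotypes, 0.61 over both treatments (SE 0.27), and its adjusted p was 0.97 from limma. *LAC18* differed by 0.38 in H49 and 0.25 in WT, *LAC1*, which the gene table lists as a transcribed pseudogene, by 0.19 and 0.17, and *LAC3* by -0.20 and -0.13. *LAC15* stayed between 1.81 and 2.11 on all arrays, with differences of -0.06 in H49 and 0.12 in WT. *LAC23* was at -0.23 and -0.22 in its probe set of higher mean, and at 0.24 and 0.04 in a second one. Whether values as low as those of *LAC15* and *LAC23* lie above background is not known from these files. *LAC19*, the gene next to *LAC20* on chromosome 11, and *LAC21* had no probe set of their own and were not analysed here.

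Among the cinnamyl alcohol dehydrogenases found by name, *CAD8D* was the one other gene called after DS, in H49. The gene table holds 10 genes with a CAD name, of which 5 had a probe set of their own. Of the 4 besides *CAD8A*, 1 fell and 0 rose in H49, and 0 were called in WT. Among all genes 9.3% fell in H49 and 8.47% in WT, and a count among 4 genes is no result about CADs. *CAD8A*, *CAD8B*, *CAD8C* and *CAD8D* follow each other on chromosome 9 with no other protein-coding gene between them in the gene table, and *CAD8C* had no probe set of its own. *CAD8D* had values of 3.30, 3.12 and 3.55 in H49_DS, against 4.55, 3.95 and 4.81 in H49_CT. In WT_DS it had 3.64, 3.73 and 4.26, against 3.83, 4.43 and 4.17 in WT_CT, where the groups overlapped. It fell by 1.11 on the log2 scale in H49 (SE 0.25, adjusted p = 0.0057 from limma), and its difference in WT was -0.26 (SE 0.25, adjusted p = 0.48). The call in H49 was lost without H49_CT replicate 3, where the difference was -0.92, and with arrays centred on their medians, where it was -0.90. Its response did not differ between H49 and WT past the threshold (-0.85, SE 0.36, adjusted p = 1 from limma).

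*CAD8B*, which lies between *CAD8A* and *CAD8D*, had differences of -0.03 in H49 and 0.14 in WT (SE 0.18 each), at values from 1.73 to 2.45. *CAD2*, known as the gold hull and internode gene and the main CAD of lignin formation in rice stems, had differences of -0.13 in H49 (SE 0.21, adjusted p = 0.70 from limma) and -0.24 in WT (adjusted p = 0.44). For *CAD3* they were -0.01 and 0.06 (SE 0.42 each). CADs of 1 cluster have related sequences, and whether the *CAD8A* and *CAD8D* probes also bind transcripts of their neighbours could not be examined, because probe sequences were not used here.

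Over the lists of laccases, CADs, monolignol enzymes, peroxidases and secondary wall genes, 23 genes besides the 3 were measured, of which 6 fell and 0 rose in H49 (17 not called) and 2 fell and 0 rose in WT (21 not called). Of all genes 9.3% fell in H49 and 8.47% in WT, so the count of 2 in WT is near that share. Of the 6 in H49, 3 came from the list of 4 peroxidase genes. The lists were chosen with earlier results of these data known, so the count of 6 is no result about lignin genes. The median difference of the 23 genes was -0.20 in H49 and -0.22 in WT, against -0.06 for all genes in both. No count was tested against that of other genes, and 0 of the 23 were called between the genotypes in any of the 4 comparisons. Counting limma's unadjusted p under 0.05 gave 1 after DS, 0 without stress, 1 over both treatments and 1 in response, against 4.84%, 1.92%, 3.99% and 2.38% of all genes, and such counts are no result about the lists.

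The list of monolignol enzymes held 13 genes, of which 5 were measured. Of these, 1 fell in H49 and 0 fell in WT, where 9.3% of all genes fell in H49 and 8.47% in WT. A count among 5 genes is no result about the list. The gene that fell was *4CL3*, one of the 4-coumarate:CoA ligases that activate hydroxycinnamic acids for the later steps. Its values were 7.76, 7.66 and 7.46 in H49_DS, against 8.92, 8.94 and 8.39 in H49_CT. In WT_DS they were 8.06, 8.21 and 7.69, against 8.67, 9.09 and 8.30 in WT_CT. DS arrays lay below the control arrays in both genotypes. *4CL3* fell by 1.12 in H49 (SE 0.23, adjusted p = 0.0034 from limma), and its difference in WT was -0.70 (SE 0.23, adjusted p = 0.042), 1.62-fold and below the fold minimum. With centred arrays the H49 difference was -0.90 and no longer reached a fold of 2. *4CL4* had differences of -0.90 in H49 (adjusted p = 0.063 from limma) and -0.39 in WT. *PAL*, a gene of phenylalanine ammonia-lyase, which opens the pathway, was at 0.35 and 0.13, and *CCR1*, a cinnamoyl-CoA reductase gene whose product acts just before CAD, at 0.08 and 0.27. For *HCT3* the differences were -0.64 and -0.59 in 1 probe set and 0.36 and 0.36 in the other, so its probe sets disagreed in sign.

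Among the 23 genes, the largest falls in both genotypes were those of 2 peroxidase genes. The list held the 4 genes with a peroxidase name in the gene table (PRX or POX and a number, or peroxidase alone). All 4 were measured. Of these, 3 fell in H49 and 2 in WT, and 0 rose, where 9.3% of all genes fell in H49 and 8.47% in WT. Peroxidase genes without such a name were not sought, so the count does not describe the family. *PRX112*, LOC4344277 and LOC4344281 all lie on chromosome 7. *PRX74* lay at 3.92, 3.53 and 3.97 in H49_DS, against 6.13, 6.12 and 5.71 in H49_CT. In WT_DS it lay at 4.69, 4.37 and 3.75, against 5.63, 6.02 and 5.64 in WT_CT, with no overlap in either genotype. It fell by 2.18 in H49 (SE 0.24, adjusted p = 4.4e-05 from limma) and fell by 1.49 in WT (SE 0.24, adjusted p = 0.00079). LOC4344277, listed only as peroxidase, fell by 2.44 in H49 (SE 0.62, adjusted p = 0.011) and fell by 2.01 in WT (adjusted p = 0.029), with DS arrays from 5.13 to 7.81 in H49 and 5.35 to 7.60 in WT. Its call in H49 was lost without H49_DS replicate 2 (-1.78), and that in WT without WT_DS replicate 1 (-1.39), WT_DS replicate 2 (-2.13), WT_CT replicate 1 (-1.78) or WT_CT replicate 3 (-1.91). *PRX112* fell by 1.40 in H49 (SE 0.41, adjusted p = 0.022 from limma) and had a difference of -0.80 in WT, and its call was lost without H49_DS replicate 1 or 3 or H49_CT replicate 1 or 2 (-1.39 to -1.11). LOC4344281 was at 0.49 in H49 and 0.25 in WT (adjusted p = 0.19 and 0.52).

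Lignin is laid down in secondary walls, whose cellulose is made by a complex that includes CESA4 and CESA9. *CESA4* had values of 6.58, 6.46 and 6.25 in H49_DS, against 8.18, 7.68 and 7.73 in H49_CT. In WT_DS the values were 6.48, 7.24 and 6.43, against 7.28, 7.80 and 7.75 in WT_CT. It fell by 1.43 in H49 (SE 0.24, adjusted p = 0.00092 from limma), and its difference in WT was -0.89 (SE 0.24, adjusted p = 0.016), below a fold of 2. *CESA9* was at -0.44 in H49 and -0.42 in WT (adjusted p = 0.16 and 0.18 from limma). The difference in response between H49 and WT was -0.54 for *CESA4* and -0.69 for *PRX74* (SE 0.35 each, adjusted p = 1 from limma).

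**Figure D2:**
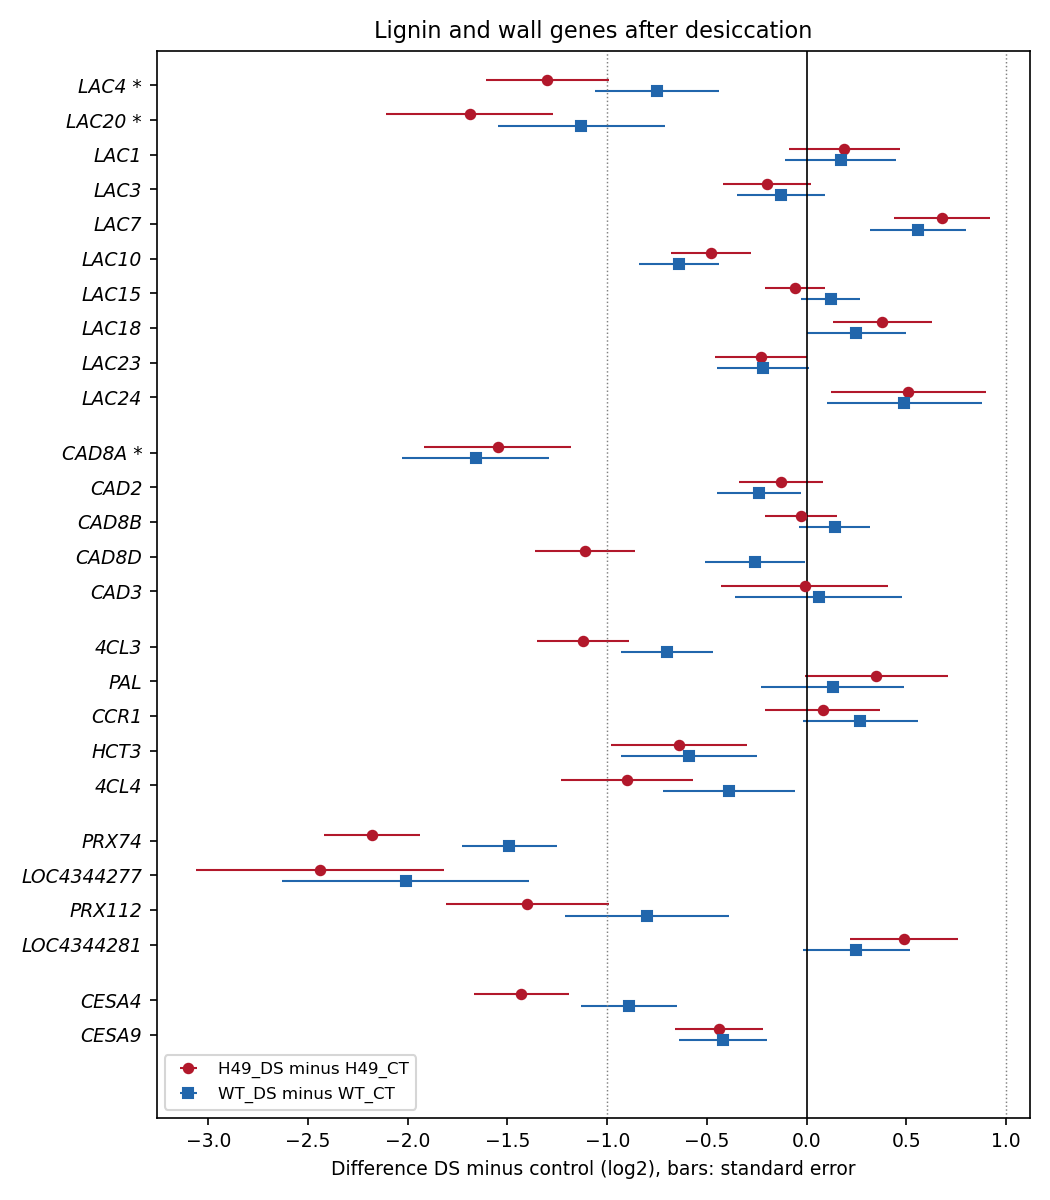
Difference between DS and control arrays (log2, horizontal axis) for *LAC4*, *LAC20* and *CAD8A*, marked with asterisks, and 23 other genes of lignin and secondary walls, in H49 (circles) and WT (squares). Bars are SEs from limma, dotted lines mark a fold of 2, and gaps separate laccases, CADs, monolignol enzymes, peroxidases and secondary wall genes; the other 8 laccases lie between -0.64 and 0.68.

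**Figure D3:**
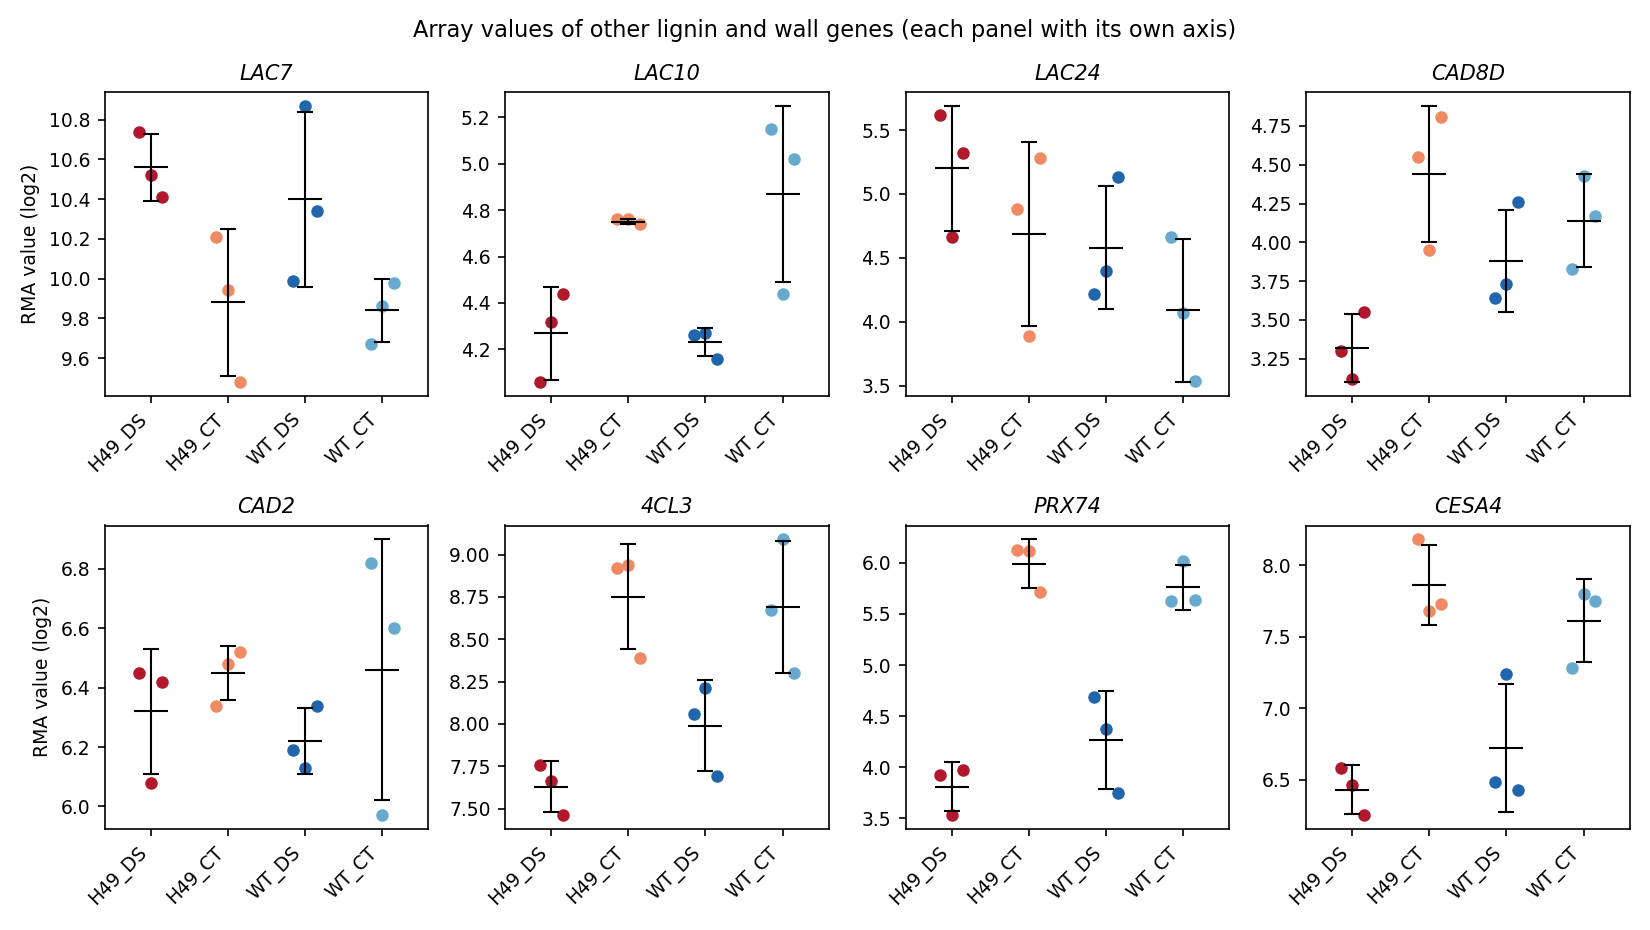
RMA expression values (log2, vertical axes) of 8 other genes of these lists in the 4 groups, with single arrays as points and group means with SD (n = 3) as bars. *LAC7* lies higher in DS than in CT arrays, *LAC10*, *4CL3*, *PRX74* and *CESA4* lie lower in both genotypes, and *CAD8D* has overlapping groups in WT.

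Markers of shoot and root were read beside these results because seedlings hold both. Of 5 shoot markers 2 were measured, both of them light-harvesting genes: *CAB2R* fell by 2.28 in H49 and fell by 2.35 in WT (adjusted p = 0.0015 and 0.0014 from limma), and *CAB1R* differed by -0.76 and -0.87. The mean log2 value of both was 6.34 to 7.19 in H49_DS and 7.69 to 8.52 in H49_CT, against 6.16 to 6.75 in WT_DS and 7.58 to 8.55 in WT_CT. Of 13 root markers 7 were measured, and their mean was 3.97 to 4.42 in H49_DS and 3.96 to 4.38 in H49_CT, against 4.16 to 4.37 in WT_DS and 4.35 to 4.65 in WT_CT. The silicon transporter gene *Lsi2* fell by 1.34 in H49 and fell by 1.81 in WT, and the other 6 root markers were not called. *Lsi2* does not stand for the list: 3 of the 7 root markers had a difference below 0 in each genotype, and the others had one above 0. The median difference of the 7 was 0.10 in H49 and 0.02 in WT, against -0.06 for all genes in both. The part of tissue makeup in the lower values of *LAC4*, *LAC20* and *CAD8A* was not tested.

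How much the 3 genes varied together was described over the 12 arrays, which share the difference between DS and control. Pearson's r was 0.61 between *LAC4* and *LAC20*, 0.70 between *LAC4* and *CAD8A* and 0.62 between *LAC20* and *CAD8A*. After the group means were removed it was -0.17, 0.04 and -0.24 for the same pairs. The arrays that were high within a group thus differed from gene to gene: in H49_CT, replicate 1 was highest for *LAC4*, replicate 3 for *LAC20*, and replicates 1 and 3 were nearly equal for *CAD8A*.

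Genes most like each of the 3 were ranked by Pearson's r over the 12 arrays among 1756 genes with a recognised name. *LAC4* was closest to *KIN12C*, a kinesin gene (r = 0.93, and 0.80 within groups), followed by *PRX74* (0.90), the replicative helicase subunit gene *MCM2* (0.89), *CIN4* (0.89) and the formin gene *FH14* (0.88). Within groups the r of the genes after *KIN12C* ran from 0.57 (*FH14*) to 0.73 (*PRX74*). *KIN12C* had means of 4.55 in H49_DS and 6.34 in H49_CT, against 5.02 in WT_DS and 6.26 in WT_CT. Its difference was -1.79 in H49 and -1.24 in WT, and *LAC4* too had the larger one in H49. *KIN12C* was picked by r over these same arrays, so this likeness is partly given by the ranking.

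*LAC20* was closest to *CIGR2*, a GRAS family gene (r = 0.94, and 0.84 within groups), followed by the phosphate transporter gene *OsPht1;1*, the *NPR1* homologue *NH3*, the beta-glucosidase gene *BGLU3* and the formin gene *FH16* (0.93 each, and 0.82 to 0.84 within groups). In each of these 5 the replicate 1 array was the lowest of its group in WT_CT and also in H49_CT, as for *LAC20* itself. The 5 genes were picked by r over these same arrays, so a shared low array is partly given by the ranking. *CAD8A* was closest to *CAX1b*, a calcium/proton exchanger gene, and the calcium-dependent protein kinase gene *CPK29* (0.95 each), followed by *NUG2* (0.94), the manganese transporter gene *NRAMP5* and *WDR12* (0.93 each). Within groups the r was 0.90 with *CPK29*, 0.80 with *CAX1b*, 0.74 with *NUG2*, 0.67 with *NRAMP5* and 0.65 with *WDR12*. *CAX1b* differed by -1.66 in H49 and -1.78 in WT, close to *CAD8A* in both. As *CAX1b* too was picked by r over these arrays, that closeness is partly given by the ranking. The lists of most similar genes shared no gene, and each r is a description of 12 arrays and not a test.

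**Figure D4:**
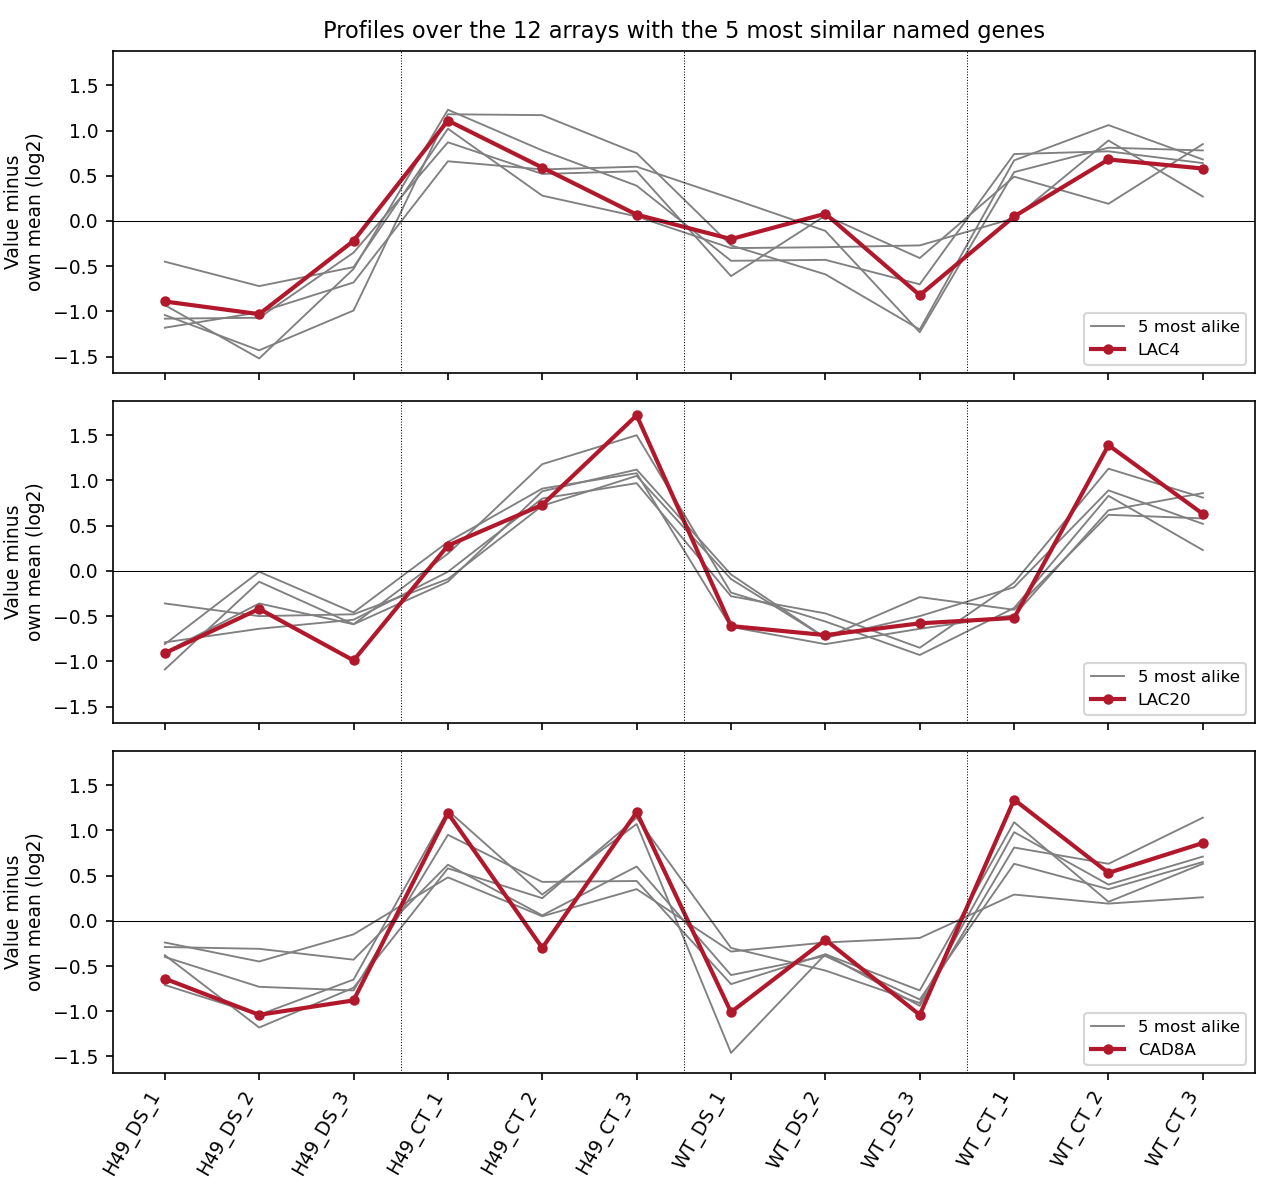
Values of *LAC4*, *LAC20* and *CAD8A* (thick lines) and of the 5 named genes most like each (thin lines) on the 12 arrays, each gene with its own mean subtracted (log2, vertical axis). Dotted lines separate the groups in the order H49_DS, H49_CT, WT_DS and WT_CT; *LAC20* and its 5 genes have the lowest value of H49_CT and of WT_CT in replicate 1.

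Genes next to the 3 on their chromosomes were read from the gene table within 4 protein-coding genes on either side, and their counts are too small to be read against the 9.3% of all genes that fell in H49 and the 8.47% in WT. Beside *LAC4* 4 such genes were measured, of which 1 fell and 0 rose in each genotype, with differences from -1.32 to -0.04 in H49 and from -1.30 to 0.13 in WT. The one that fell was LOC4327498. Beside *LAC20* 5 were measured and 0 were called, with differences from -0.73 to 0.99 in H49 and from -0.59 to 0.20 in WT. Around *CAD8A* 7 were measured, and 1 fell in each genotype, *CAD8D* in H49 and LOC4346985 in WT. Differences around *CAD8A* ran from -1.11 to 0.48 in H49 and from -1.11 to 0.54 in WT.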

How the data were processed

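Total RNA of rice seedlings, cultivar Pusa Basmati 1, was hybridised to 12 Affymetrix arrays, 3 each of H49_DS, H49_CT, WT_DS and WT_CT. The deposited values are log2 expression values per probe set, which the authors made from the probe intensities by RMA (background correction, normalization across arrays and summary per probe set) in GeneSpring. No detection calls were used here, so whether a low value lies above background is unknown, and precision is limited by the number of arrays. The labels name a 3′ labelling kit and the paper's methods a whole-transcript kit. The 3 replicates are described as independent biological replicates.

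Of 54922 probe sets, 15829 carried 1 gene in the platform annotation, 440 several and 38653 none. For 627 of 15140 genes with more than 1 probe set of their own, the one with the highest mean was used. Gene names were taken from a RefSeq gene table through gene identifiers, all of which matched. Coordinates and sequences are not given, because the build of the array design is not given in the sources used here.

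A model with the 4 groups was fitted to all 15140 genes in limma 3.58.1 (lmFit and eBayes, R 4.3.3), with 6 comparisons and Benjamini-Hochberg adjustment over all genes. Genes were called at an adjusted p of 0.05 or lower when the fold was also 2 or more. Calling was checked on simulated data. Correlations, counts and plots were made in Python 3.11.15 with numpy 2.4.6, pandas 2.3.3 and matplotlib 3.10.9. *LAC4*, *LAC20* and *CAD8A* and all gene lists were chosen with earlier results of these data known. Named genes were these 3, every measured laccase and CAD, the called members of the other lists (up to 4 in each direction by size), and the 5 genes with a recognised name and the highest Pearson's r with each of the 3. *4CL4*, *PAL*, *CCR1*, *HCT3*, LOC4344281, *CESA9*, *CAB1R*, LOC4327498 and LOC4346985 fall outside this rule and were named after their values were seen. All gene lists were found by symbol or synonym, so family members without such a name are missing from them. A gene list for dirigent proteins had 0 genes in the gene table. Alternatives were centring, quantile normalization, another fold minimum, Student's t-test between 2 groups, the mean of probe sets, a filter on dim genes, a replicate block and leaving out arrays.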

Additional observations from a re-analysis of the deposited data

How the results depend on the processing

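The 6 differences after DS of *LAC4*, *LAC20* and *CAD8A* kept their sign in 18 of 18 alternatives. Each moved by less than the pooled SD of its groups (in turn 0.48, 0.56 and 0.63 in H49 and 0.41, 0.68 and 0.44 in WT). Leaving out the other genotype's arrays, averaging probe sets, the dim-gene filter and the replicate block could not move them. Some moves exceeded the SE of the difference, as for *CAD8A* in H49 (-2.05 without H49_CT replicate 2) and *LAC20* in WT (-1.65 without replicate 1 of every group). With single arrays left out in turn they lay between -1.56 and -1.04 (*LAC4*), -2.00 and -1.28 (*LAC20*) and -2.05 and -1.30 (*CAD8A*) in H49, and between -0.95 and -0.49, -1.64 and -0.69, and -1.93 and -1.45 in WT. Centring each array on its median shifted the median difference of all genes after DS to 0.16 in H49 and 0.14 in WT, against -0.06 in both as deposited, and the 3 genes were then at -1.09, -1.47 and -1.34 in H49 and -0.54, -0.92 and -1.45 in WT. Leaving out replicate 1 of every group was added after seeing the data: the H49 minus WT difference of *LAC4* in control arrays was then -0.30 and its difference in response 0.05, so both changed sign, and the cause was not tested. Of the 23 other lignin and wall genes, 6 fell in H49, against 4 of these 6 with centring, 5 of them with quantile normalization and 3 of them with Student's t-test after Benjamini-Hochberg adjustment. Without replicate 1 of every group 4 fell, of which 2 were among the 6 and 2 were *4CL4* and *HCT3*, and 5 to 7 fell with single arrays left out. In WT 2 fell, against 5 with no fold minimum, 1 with Student's t-test unadjusted, 0 with it adjusted, 1 without replicate 1 of every group and 1 to 3 with single arrays left out (1 without WT_DS replicate 1 and 1 without WT_CT replicate 3). *PRX74* in both genotypes and *CESA4* in H49 kept their calls in 18 of 18 alternatives fitted with limma, and *PRX74* in WT lost its call with the adjusted t-test. *4CL3*, *CAD8D*, *PRX112* and LOC4344277 lost theirs without replicate 1 of every group (-1.10, -1.05, -1.07 and -2.58 in H49), as did LOC4344277 in WT (-1.16), and *PRX112* did with quantile normalization (-1.22). Over all genes, 885 fell in H49 and 774 in WT with centring, 2673 and 2610 fell with no fold minimum and 752 and 216 with the adjusted t-test, against 1408 and 1283 as reported. With no fold minimum 1436 rose in H49 and 1401 in WT, against 797 and 747, and with the adjusted t-test 209 rose in WT. The replicate numbers were not used as pairs: 13 of 18 same-numbered pairs of arrays correlated above 0.1 after group means were removed (-0.20 to 0.39), among them 12 of 12 pairs of replicates 2 and 3, so the 5 others were all pairs of replicate 1, and 10 of 12 arrays correlated best with their own number. The replicate block gave SEs of 0.33, 0.37 and 0.36 for the 3 genes in turn, and 6 of the 23 genes again fell in H49 and 2 in WT. Low values have no detection call, and 3 arrays per group limit precision.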
